A study of Mus musculus with 6 samples.

Results

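The Hedgehog ligand *Shh*, its receptor *Ptch1*, the signal transducer *Smo*, the ligand-binding inhibitor *Hhip*, the transcription factors *Gli1*, *Gli2* and *Gli3*, and the co-receptors *Cdon* and *Boc* were followed in embryonic mouse lungs that lacked *Rptor* in the epithelium. The 9 genes were chosen by name for their roles in the pathway, and all 9 were found among the 23420 genes of the table. RNA from whole lungs at E11.5dpc was sequenced in 3 pools of control lungs, labelled Raptorf/+; ShhCre/+, and 3 pools of mutant lungs, labelled Raptorf/f; ShhCre/+. *Rptor* encodes Raptor, the defining subunit of mTORC1, and the comparison asks what loss of mTORC1 in the lung epithelium changes in the lung. Each pool held 3 or 4 lungs of the same genotype. The Cre was driven by *Shh* itself. It is a fusion of EGFP and Cre inserted at the *Shh* locus, an allele known to make no SHH, so that all pools of both groups carried 1 intact *Shh* copy. Reads of the inserted allele that lie in the remaining *Shh* exons cannot be told apart from those of the intact copy. Control lungs also carried 1 floxed *Rptor* allele, and a group without Cre was not analysed here.

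In the developing lung, SHH is made by the epithelium and acts on the mesenchyme around it. Without ligand, PTCH1 holds SMO inactive and GLI3 is largely processed into a repressor. When SHH binds PTCH1 together with the co-receptors CDON, BOC or GAS1, SMO is released, GLI2 and GLI3 act as activators, and *Gli1*, *Ptch1* and *Hhip* are transcribed as direct targets that report pathway activity. PTCH1 and HHIP then bind the ligand and limit how far it spreads. Lungs without *Shh* are known to branch poorly, and SHH is known to restrain *Fgf10*, the mesenchymal growth factor that draws out epithelial buds.

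The promoters of 6 of the 9 genes could be matched to windows of RefSeq (GRCm38.p6), which were *Ptch1*, *Smo*, *Hhip*, *Gli2*, *Gli3* and *Cdon*. The 250 bases before the annotated start are shown for the feedback genes *Ptch1* (chr13:63565736-63565985, minus strand) and *Hhip* (chr8:80058009-80058258, minus strand), since pathway activity is read from them, and for *Gli2* (chr1:119053620-119053869, minus strand), since it alone held a GLI core. Capitals mark matches to the GLI core or to the GC box on either strand, and none of the 3 windows overlaps an annotated exon.
Ptch1: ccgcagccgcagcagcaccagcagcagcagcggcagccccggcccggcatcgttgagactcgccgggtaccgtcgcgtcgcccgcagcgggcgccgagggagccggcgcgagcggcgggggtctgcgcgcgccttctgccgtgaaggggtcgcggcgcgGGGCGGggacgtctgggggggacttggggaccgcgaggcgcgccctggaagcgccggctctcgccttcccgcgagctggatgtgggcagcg
Hhip: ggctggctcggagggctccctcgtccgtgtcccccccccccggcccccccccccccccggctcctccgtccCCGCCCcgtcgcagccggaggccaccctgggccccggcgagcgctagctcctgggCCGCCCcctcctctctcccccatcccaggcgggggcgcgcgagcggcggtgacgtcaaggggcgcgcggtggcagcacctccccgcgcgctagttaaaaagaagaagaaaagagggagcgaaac
Gli2: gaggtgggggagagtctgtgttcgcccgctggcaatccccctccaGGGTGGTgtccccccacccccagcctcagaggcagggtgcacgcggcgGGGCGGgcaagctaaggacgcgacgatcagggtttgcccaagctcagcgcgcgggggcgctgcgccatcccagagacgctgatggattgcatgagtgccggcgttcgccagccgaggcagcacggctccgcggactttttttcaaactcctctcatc
The GLI binding motif GACCACCCA was found in none of the 6 windows and in 0.225% of 32851 mouse promoter windows of the same length. Its core ACCACCC, which lies within the motif, was found in *Gli2* (1 match) and in 3.92% of all windows. The GC box GGGCGG had 1 match in *Ptch1*, 2 in *Hhip*, 1 in *Gli2* and 2 in *Gli3*, against at least 1 match in 32.7% of all windows, and the TATA box TATAAA was in none of the 6 and in 12.4% of all. GC content was 78.4% in *Ptch1*, 76.0% in *Hhip* and 67.2% in *Gli2*, and its median over all windows was 52.4%. The *Ptch1* window lies 7863 bases inside the outermost start that GENCODE gives the gene. The *Cdon* window lies 30948 bases inside that gene and holds 31 bases of exon, and all 250 bases of the *Gli3* window are exonic in GENCODE, so these do not stand for the outermost promoters. These matches describe letters in a short window and do not show binding, and GLI sites outside the windows were not searched.

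In GRCm38 coordinates (GENCODE M21), *Shh* lies at chr5:28456815-28467256, *Ptch1* at chr13:63508328-63573598, *Hhip* at chr8:79965851-80058006, *Gli1* at chr10:127329882-127341974, *Gli2* at chr1:118834132-119053619 and *Boc* at chr16:44485049-44558897, all on the minus strand. *Smo* at chr6:29735503-29761365, *Gli3* at chr13:15463235-15730026 and *Cdon* at chr9:35421128-35507652 are on the plus strand. A gene on the opposite strand, 9530036O11Rik, overlaps *Shh*, and *Arhgap9* overlaps the end of *Gli1*. GENCODE also gives opposite-strand genes without values here, among them Gm47200, which covers most of *Gli1* (chr10:127332391-127341974). Gm26894 overlaps *Shh* and Gm6556 overlaps *Gli3* in the same way. The strand setting of the counting is not given in the sources used here, so reads of such pairs may be shared.

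The libraries held 20197642 to 21276090 reads assigned to genes. *Rptor* itself was 2199 ± 77.0 normalized counts in controls and 2103 ± 69.1 in mutants (SD, n = 3 each), a log2 fold change of -0.06 (SE 0.05, adjusted p = 0.584, limma). Reads were summed over the full length of *Rptor* and over all lung cells, of which only the *Shh* lineage carries the deletion, and so this value does not check the deleted exons. Values are normalized counts (reads divided by the size factor of the library), errors are SD over 3 pools, and adjusted p-values are from limma over 17168 tested genes with a threshold of 0.05.

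None of the 9 Hedgehog genes passed this threshold. The same test called 86 genes in all (0.501% of those tested). At an unadjusted p under 0.05, 4 of the 9 passed (*Ptch1*, *Gli3*, *Cdon* and *Boc*), against 13.6% of all tested genes. Run on whole reads, edgeR called 0 of the 9 (0.539% of all genes) and DESeq2 called 1, *Boc* (1.99% of all genes). In 3 of the 9, *Gli3*, *Cdon* and *Boc*, every mutant pool was above every control pool, which held for 9.77% of all tested genes. In 0 of the 9 was every mutant pool below every control pool, against 10.5% of all. The median log2 fold change was 0.06 over the 9 genes and -0.0021 over all tested genes.

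**Figure D1:**
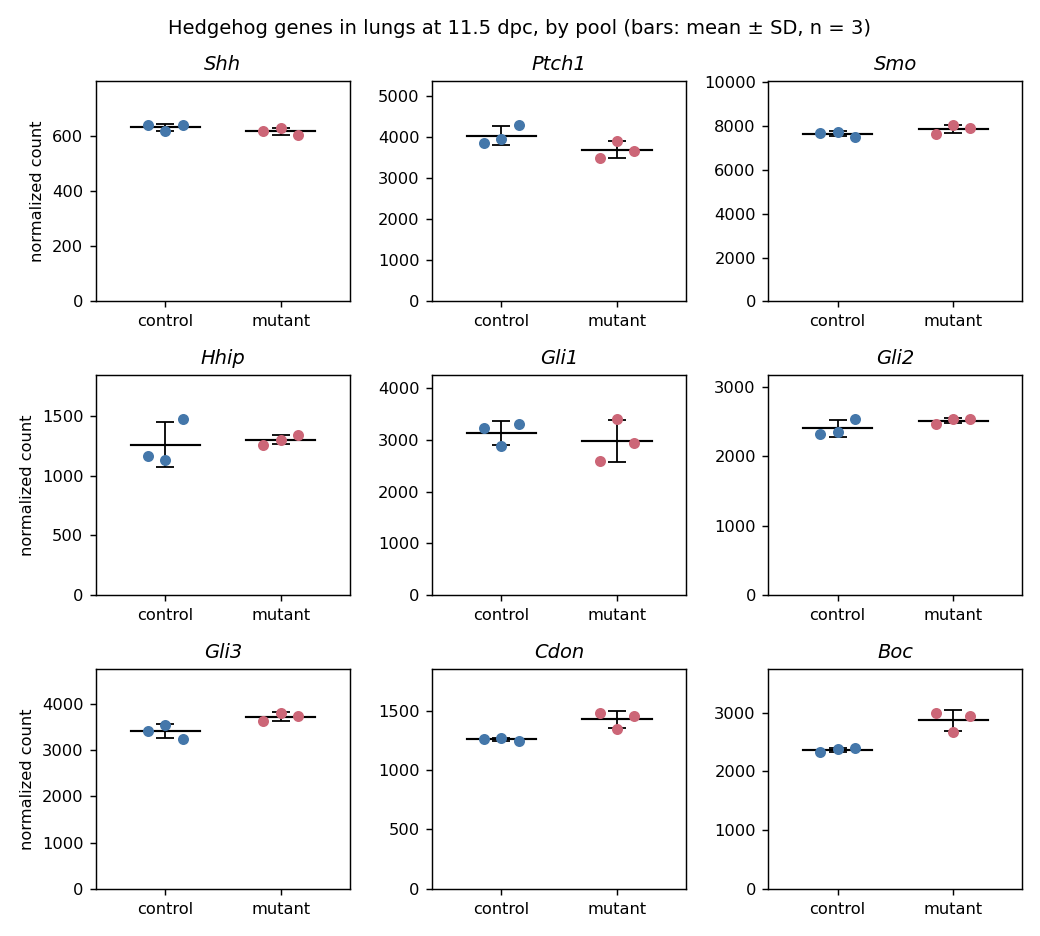
Normalized counts of the 9 Hedgehog genes in each pool, with 1 panel per gene and its own vertical axis. Points are the 3 control and the 3 mutant pools, and bars give the mean ± SD. The groups separate in *Gli3*, *Cdon* and *Boc* and overlap in the other 6 genes.

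Markers of other cell types moved with genotype, and this bears on every value from whole lung. Of 20 epithelial markers, 8 were lower in mutants at the threshold and none was higher, with a median log2 fold change of -0.49. Their summed level was 20492 to 24689 in controls and 15351 to 17158 in mutants. *Cdh1*, the epithelial cadherin, was 1439 ± 131 in controls and 736 ± 97.7 in mutants (log2 fold change -0.97, adjusted p = 0.00728, limma), and the claudin *Cldn6* was 3088 ± 333 and 1880 ± 180 (-0.71, adjusted p = 0.0119, limma). *Krt19*, a keratin that is also on the mesothelial list, went the other way, with every mutant pool above every control pool (302 ± 28.8 in controls, 410 ± 26.6 in mutants, log2 fold change 0.44, adjusted p = 0.0734, limma). Of 17 tested mesenchymal markers, 3 were higher and none lower, with a median of 0.19 and a summed level of 127703 to 132841 in controls and 152389 to 157198 in mutants. The collagen genes *Col1a1* (log2 fold change 0.49, adjusted p = 0.0125, limma) and *Col1a2* (0.34, adjusted p = 0.0128, limma) both rose. None of the epithelial markers and, of the mesenchymal ones, only *Dpt* was at 0 in any pool, and *Nkx2-1*, the lung epithelial factor, was 2433 ± 330 in controls and 2029 ± 45.7 in mutants, so that this lung marker was present in both groups. These calls of *Cdh1*, *Cldn6*, *Col1a1* and *Col1a2* were all lost without control pool 1 (adjusted p = 0.125 to 0.192, limma) and without mutant pool 3 (0.071 to 0.123). In whole lung, fewer cells of a type and less RNA per cell cannot be told apart.

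Of the other marker lists, 1 gene was called. Smooth muscle markers had a median log2 fold change of 0.24 with 0 of 10 called, mesothelial markers 0.20 with 1 of 7 called (*Wt1*, 0.31, adjusted p = 0.0496, limma), endothelial markers 0.19 with 0 of 10 called and macrophage markers 0.18 with 0 of 8 called. Neural markers had a median of -0.02 with 0 of 10 called, and erythroid markers -0.01 with 0 of 6. Cardiac muscle markers were at -0.41 with 0 of 8 called, and their summed level was 1022 to 1158 in controls and 741 to 858 in mutants. At an unadjusted p under 0.05, 4 smooth muscle, 4 mesothelial and 7 endothelial markers were higher. Lower at that p were 2 neural and 3 cardiac markers, and no erythroid or macrophage marker passed. Of all tested genes, 13.6% passed in either direction.

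No change of *Shh*, the ligand gene, was detected. It was at 638, 617 and 637 normalized counts in the control pools and at 618, 628 and 604 in the mutant pools. The ranges overlapped, and the means were 631 ± 12.2 and 617 ± 12.5. The log2 fold change was -0.03 (SE 0.06, adjusted p = 0.854, limma), and the 95% interval placed the mutant level at 89.5% to 107% of control. Each value rests on 597 to 650 reads, for which counting alone gives an error of 4.0%, larger than the spread among pools of 1.93% in controls and 2.02% in mutants. The antisense transcript 9530036O11Rik, which shares this locus, had 2 to 10 normalized counts per pool.

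Since SHH is made in epithelium, *Shh* was also set against the mean of the 20 epithelial markers in each pool. This log2 ratio was -0.41, -0.56 and -0.25 in controls and -0.05, 0.12 and -0.08 in mutants. Every mutant pool was above every control pool. The difference was 0.41, a 1.33-fold higher ratio in mutants, with an exact permutation p = 0.1, two-sided, the smallest that 3 against 3 pools allow. Of the 20 epithelial markers, 19 had a lower log2 fold change than *Shh*. Against *Cdh1* alone the log2 ratio of *Shh* was 0.94 higher in mutants, again with no overlap, and was not tested. *Cdh1* had the lowest log2 fold change of the epithelial list (-0.97, against a median of -0.49), so its ratio mostly restates the fall of *Cdh1*. Over all 20 markers the difference was the 0.41 given above, and it too mostly restates a fall of the markers. Their mean log2 level differed by -0.44 in mutants with no overlap, and that of *Shh* by -0.03. The part of cell composition in these ratios was not tested.

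**Figure D2:**
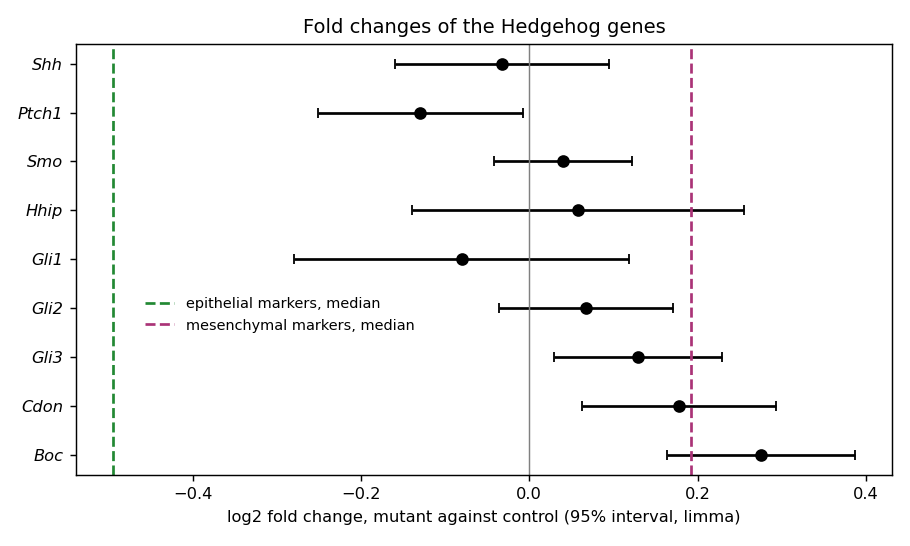
Log2 fold changes of the 9 Hedgehog genes, mutant against control, with 95% intervals from limma on the horizontal axis. The dashed lines give the median of the epithelial markers (-0.49) and of the mesenchymal markers (0.19). The interval of *Shh* lies above the epithelial median, and those of *Ptch1*, *Smo*, *Gli1* and *Gli2* lie below the mesenchymal one.

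The receptor and the other feedback genes did not pass the test in either direction. *Ptch1*, which binds SHH and is induced by it, was at 3858, 3952 and 4291 in controls and at 3488, 3904 and 3669 in mutants. Mutant pool 2 was above control pool 1, and otherwise the mutant pools were lower. The means were 4034 ± 228 and 3687 ± 209, a log2 fold change of -0.13 (SE 0.05, adjusted p = 0.334, limma), or 91.4% of control with an interval of 84.0% to 99.4%. Without control pool 3 the log2 fold change was -0.084.

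*Hhip*, the membrane protein that sequesters ligand, was at 1168, 1134 and 1477 in controls and at 1262, 1304 and 1342 in mutants. Control pool 3 was the highest of the 6, and the mutant pools lay between the controls. The means were 1260 ± 189 and 1303 ± 40.0 (log2 fold change 0.06, SE 0.09, adjusted p = 0.825, limma), and the interval ran from 90.8% to 119% of control. Without control pool 2 the log2 fold change was -0.012.

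*Gli1*, the activator most used as a readout of the pathway, was at 3235, 2875 and 3313 in controls and at 2594, 3408 and 2949 in mutants. Both the lowest and the highest pool were mutants. The means were 3141 ± 234 and 2984 ± 408 (log2 fold change -0.08, SE 0.09, adjusted p = 0.745, limma), with an interval of 82.4% to 109% of control, and without mutant pool 1 the log2 fold change was 0.016. *Ptch1*, *Gli1* and *Hhip* thus had intervals that still contain changes of several percent, and of over 15% for a lower *Ptch1* or *Gli1* or a higher *Hhip*.

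*Smo*, the seven-pass protein that carries the signal across the membrane, was at 7697, 7725 and 7522 in controls and at 7653, 8048 and 7900 in mutants. The ranges overlapped. The means were 7648 ± 110 and 7867 ± 199 (log2 fold change 0.04, SE 0.04, adjusted p = 0.680, limma), and its interval, 97.2% to 109% of control, was the narrowest of the 9 in log2 terms. With 1 pool left out its log2 fold change ran from 0.024 (without mutant pool 2) to 0.060 (without mutant pool 1).

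*Ptch1*, *Gli1* and *Hhip* are read out mostly in mesenchyme, whose markers were higher in mutants. Each was therefore also set against the mean of the mesenchymal markers in the same pool. The *Ptch1* log2 ratio was 0.46, 0.52 and 0.71 in controls and 0.12, 0.30 and 0.19 in mutants. All mutant pools were below all control pools, by 0.36 on average (exact permutation p = 0.1, two-sided, the smallest possible). The *Gli1* ratio was 0.31 lower with overlapping groups (exact permutation p = 0.2), and the *Hhip* ratio 0.17 lower with overlapping groups (exact permutation p = 0.5). Without control pool 3 the *Hhip* difference was -0.022 (exact permutation p = 0.9). Over these 3 tests and that of *Shh*, none could pass 0.05 in this design. On the same scale and with no test, *Smo* was 0.19, *Gli2* 0.16 and *Gli3* 0.10 lower, each with no overlap, whereas *Cdon* (0.05 lower) and *Boc* (0.05 higher) overlapped. The sign of *Smo*, *Hhip*, *Gli2*, *Gli3* and *Cdon* therefore depends on whether levels are set against all genes or against mesenchymal markers. The marker mean was itself 0.23 higher in mutants with no overlap. The log2 fold changes of *Smo* (0.04), *Gli2* (0.07) and *Gli3* (0.13) were not lower, so their lower ratios restate the rise of the markers. *Ptch1* (-0.13) was lower by less than its ratio. Which lung cells express *Smo*, *Gli2*, *Gli3*, *Cdon* and *Boc* was not measured.

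**Figure D3:**
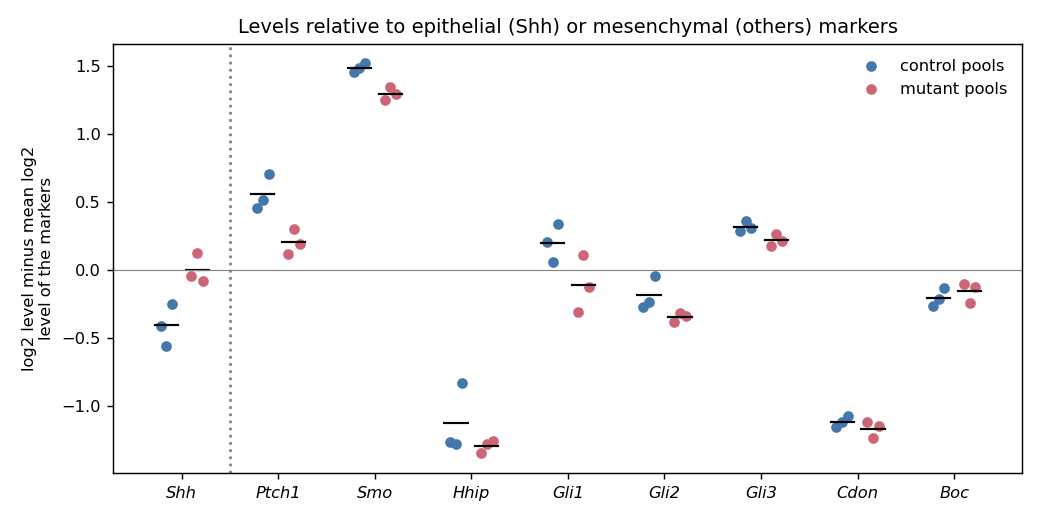
Log2 level of *Shh* relative to the mean of the epithelial markers, and of the other Hedgehog genes relative to the mean of the mesenchymal markers, in each pool. Points are pools and short lines give the mean (n = 3). The groups separate for *Shh*, higher in mutants, and for *Ptch1*, *Smo*, *Gli2* and *Gli3*, lower in mutants. The mean of the epithelial markers was itself lower in mutants and that of the mesenchymal markers higher, each with no overlap.

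Target levels were also read against the ligand within a pool. The log2 ratio of *Ptch1* to *Shh* was 0.10 lower in mutants, that of *Gli1* to *Shh* 0.05 lower and that of *Hhip* to *Shh* 0.09 higher, and the groups overlapped in all 3. The ratio of *Gli1* to *Gli3* was 0.21 lower, with overlap. These ratios use the same values as above and were given no test.

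Neither of the GLI factors that act before feedback passed the test. *Gli3*, the main source of GLI repressor, was at 3420, 3553 and 3249 in controls and at 3630, 3810 and 3736 in mutants, with no overlap. The means were 3407 ± 152 and 3725 ± 90.3 (log2 fold change 0.13, SE 0.04, adjusted p = 0.236, limma), or 109% of control. *Gli2*, the main activator, was at 2322, 2348 and 2540 in controls and at 2473, 2537 and 2540 in mutants. Control pool 3 lay within the mutant range, and the means were 2403 ± 119 and 2517 ± 38.2 (log2 fold change 0.07, SE 0.05, adjusted p = 0.566, limma). Without control pool 3 the log2 fold change was 0.11 for *Gli2* and 0.096 for *Gli3*, and that of *Gli2* was 0.043 without control pool 1. Messenger levels do not show how much GLI3 or GLI2 protein was processed.

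The co-receptors *Boc* and *Cdon* had higher levels in all mutant pools than in any control pool. *Boc*, an immunoglobulin and fibronectin repeat protein that presents SHH to PTCH1, was at 2336, 2378 and 2397 in controls and at 3000, 2671 and 2949 in mutants. The control pools lay close together, and the lowest mutant pool was above them all. The means were 2370 ± 31.6 and 2873 ± 177, a log2 fold change of 0.28 (SE 0.05), or 121% of control with an interval of 112% to 131%. Its adjusted p was 0.0504 with limma and 0.0522 with edgeR, both just over the threshold, and 0.00159 with DESeq2. By limma it was under the threshold without control pool 3 (adjusted p = 0.0113) and with upper-quartile scaling (adjusted p = 0.0494), and over all alternatives run it ranged from 0.00024 (library weights) to 0.314 (without mutant pool 3), so the call rests on such choices.

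*Cdon*, the close relative of *Boc*, was at 1259, 1273 and 1246 in controls and at 1483, 1341 and 1455 in mutants, with no overlap. The means were 1259 ± 13.2 and 1426 ± 74.8 (log2 fold change 0.18, SE 0.05, adjusted p = 0.172, limma), or 113% of control. Its log2 fold change was above those of the 7 genes other than *Boc* with all pools, but not without control pool 3 (0.17, against 0.18 for *Hhip*). Mutant pool 2 was the lowest mutant for both genes. The third co-receptor, *Gas1*, a lipid-anchored protein, was at 3660, 3546 and 3640 in controls and at 3913, 3910 and 3961 in mutants, again with no overlap (log2 fold change 0.12, SE 0.04, adjusted p = 0.192, limma). The log2 ratio of *Boc* to *Ptch1* was 0.41 higher in mutants and that of *Cdon* to *Ptch1* 0.31 higher, both without overlap and with no test. The log2 fold changes of *Boc*, *Cdon* and *Gas1* stood beside a median of 0.19 over the mesenchymal markers, and the part of cell composition in them was not tested.

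Set per kb of exon, which allows genes to be compared, *Smo* was the most abundant in controls (1361 ± 19.6 normalized counts per kb). *Gli1* (629 ± 46.8) and *Boc* (533 ± 7.09) followed. *Gli3* (355 ± 15.9) and *Gli2* (350 ± 17.3) did not differ beyond their spread. Below them came *Ptch1* (284 ± 16.1), *Shh* (222 ± 4.27), *Cdon* (163 ± 1.71) and *Hhip* (139 ± 20.8), and the control pools of the last pair overlapped. In mutants *Boc* (645 ± 39.8 per kb) was level with *Gli1* (597 ± 81.7) within the spread, and the rest kept the same order. With the length of the longest transcript in place of all exons, *Ptch1* (388 per kb in controls) came before *Gli2* (362 per kb), so their order depends on the length used.

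**Figure D4:**
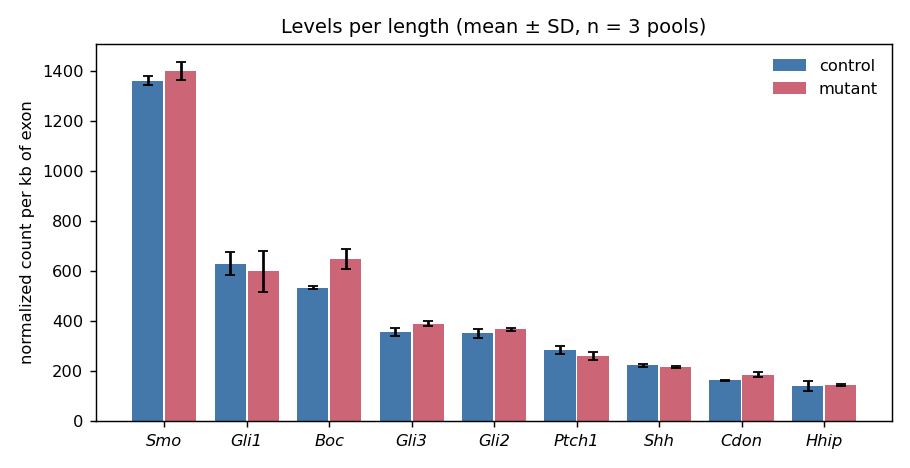
Normalized counts per kb of exon for the 9 Hedgehog genes in control and mutant lungs. Bars start at 0 and give the mean of 3 pools, with SD as error bars. *Smo* is highest in both groups, and *Boc* and *Gli1* are level within their spread in mutants.

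Around these 9 genes, 1 of 70 other tested Hedgehog pathway genes passed the threshold, against 0.501% of all tested genes. Of the 70, 35 had a higher and 35 a lower mean log2 level in mutants. Their median log2 fold change was -0.0046. At an unadjusted p under 0.05, 4 were higher and 3 lower, and the groups did not overlap in 7 that were higher and 5 that were lower. As shares of the 70, these unadjusted and non-overlapping counts are near or below those of all tested genes (13.6%, 9.77% and 10.5%). The gene called was *Ccnd1*, which encodes cyclin D1 and is a target shared with other pathways. It was at 7691, 8202 and 7662 in controls and at 6805, 6370 and 6571 in mutants, and fell by 0.25 on the log2 scale (SE 0.04, adjusted p = 0.0398, limma), but it was not called without control pool 1 or without any 1 of the mutant pools. Another cyclin gene of the target list, *Ccnd2*, followed with -0.16 (adjusted p = 0.0797, limma).

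The other targets gave no call. Of 19 tested targets, 1 was higher and 3 were lower at an unadjusted p under 0.05, with a median log2 fold change of -0.03. That p was reached by 13.6% of all tested genes, in either direction. *Foxf1*, the mesenchymal forkhead factor that depends on SHH, was 5266 ± 63.8 in controls and 5394 ± 259 in mutants. It was named for its known dependence on SHH after its values were seen.

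Ligand release had 0 of 11 genes called and a median of -0.04. *Scube2*, a secreted factor that helps release SHH, had the values 28.0 ± 5.92 and 21.9 ± 3.98, and the related ligand gene *Ihh* had 2 to 10 normalized counts per pool. Reception had 0 of 8 called (median 0.03), with *Gas1* and *Efcab7* (log2 fold change 0.37, adjusted p = 0.369, limma), a scaffold of the ciliary SMO complex, at the lowest p. Intracellular transduction had 0 of 21 called (median 0.02), with *Arrb1* (0.26, adjusted p = 0.0844, limma) and *Arrb2* (0.17, adjusted p = 0.259, limma), the beta-arrestins, at the lowest p. The primary cilium, where the pathway operates, had 0 of 12 called (median -0.02), with *Arl13b* (0.16, adjusted p = 0.394, limma), a ciliary small GTPase, and the kinesin gene *Kif3a* (-0.09, adjusted p = 0.454, limma) at the lowest p.

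**Figure D5:**
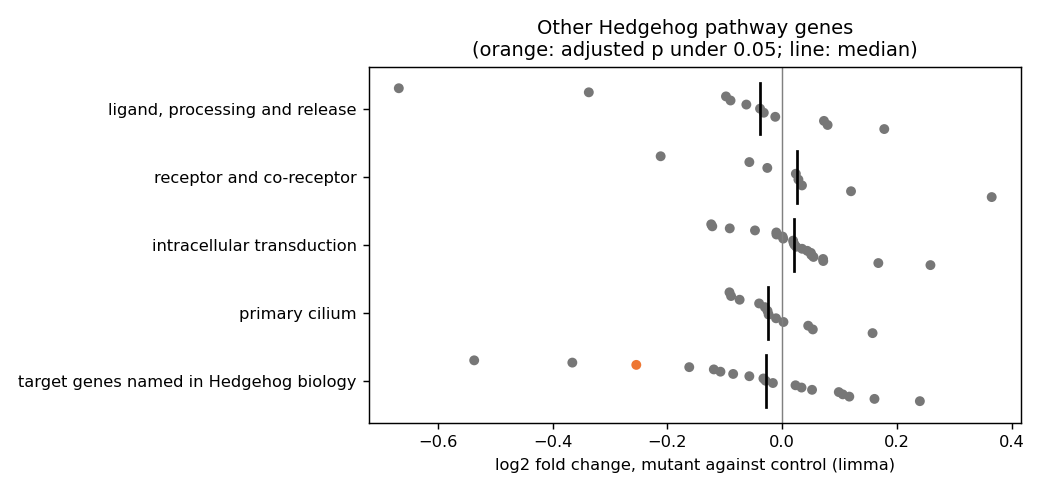
Log2 fold changes, mutant against control, of the other Hedgehog pathway genes by role. Each point is 1 gene, the short line is the median of the role, and orange marks an adjusted p under 0.05 (limma). *Ccnd1* among the targets is the only orange gene.

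*Fgf10*, which SHH restrains in the distal mesenchyme, was at 603, 611 and 493 in controls and at 844, 979 and 841 in mutants. Its log2 fold change was 0.64 with no overlap (adjusted p = 0.0322, limma), beside a median of 0.19 over the mesenchymal markers. The parts of cell composition and of SHH in this rise were not tested. *Fgf10* was not called by limma without control pool 1 (adjusted p = 0.192) or without any 1 of the mutant pools (0.109 to 0.149). Nor was it called without the variance trend or without a filter. Its log2 fold change stayed between 0.54 and 0.70 in every alternative run.

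Genes whose profile over the 6 pools was most like that of *Shh*, by the root mean square distance between centred log2 values, were *Sgol2* (0.0105), *Def8* (0.0119) and *Psip1* (0.0128), out of 11449 candidates with a median distance of 0.0849. For *Gli1* they were *Zfp493* (0.0256), *Amigo3* (0.0334) and *Etohi1* (0.0335), with a median of 0.159. A flat profile such as that of *Shh* is near that of any other gene that varied little, and these neighbours describe the 6 libraries only.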

How the data were processed

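Per the labels and the paper's methods, whole lungs at E11.5dpc were pooled by genotype (3 or 4 per pool) and sequenced as 3 control and 3 mutant libraries. Lungs of a later stage were not analysed here. The submitters' processing notes name Trim Galore, HISAT2, featureCounts, DESeq2 and mm10, whose versions and annotation are not given in the sources used here. The authors deposited signal values that are normalized counts, in which read counts per gene had been scaled by library size factors. The deposited table also holds the authors' own comparison (mean, log2 fold change, error, statistic and p-values), which was not used. It has 27 symbols turned into dates and 2 that occur in more than 1 row, none of them a gene described here.

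Whole reads were recovered from the steps of the values in all 6 libraries (100% of values within 0.1 read of a whole number) and give the depth. Main values are from limma 3.58.1 in R 4.3.3 (lmFit, eBayes with trend) on log2(normalized count + 1), for genes that reached 1 in 3 or more libraries. P-values were adjusted by Benjamini and Hochberg's method over all tested genes. Fold changes on this scale understate changes of low genes. The recovered reads were also tested with edgeR 4.0.16 (quasi-likelihood, TMM) and DESeq2 1.42.0. The scripts were tested on simulated data. Ratios to markers were compared with two-sided exact permutation tests. Controls were littermates of mutants, and mutants of several litters were combined. Which litters went into which pool is not given in the sources used here, so p-values measure the spread between these pools. Counting errors cover counting only.

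The 9 genes, the pathway and marker lists and the tests were chosen with earlier results of these data known. Named were the 9 genes, *Rptor*, *Fgf10*, other pathway genes with an adjusted p under 0.05 or among the 2 lowest p of their role, at most 2 markers of each cell type and the 3 nearest profiles of *Shh* and *Gli1*. Added after the values were seen were *Foxf1*, *Nkx2-1* and *Dpt*, and *Krt19* as an epithelial marker. Values of 1 other pathway gene are not reported here. Of 72 other pathway genes listed, 70 were tested.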

Additional observations from a re-analysis of the deposited data

How the results depend on the processing

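The number of genes called, 86, was 8 without the variance trend, 18 without a filter, 2639 with library weights, 278 with DESeq2, and 1 to 468 when 1 pool was left out (1 without control pool 1 or mutant pool 3, 468 without control pool 3). Of the 9 Hedgehog genes, 0 were called, against 1 (*Boc*) with upper-quartile scaling, 1 (*Boc*) with DESeq2 and 5 (*Hhip*, *Gli2*, *Gli3*, *Cdon*, *Boc*) with library weights. Leaving out 1 pool gave 0 to 1, *Boc* without control pool 3. Library weights gave control pool 1 a weight of 5.25 and control pool 3 one of 0.299. Of the other pathway genes, 1 was called, against 0 without the trend, 0 without a filter, 15 with library weights, 3 with DESeq2 (*Arrb1*, *Ccnd1*, *Ccnd2*) and 0 to 4 with 1 pool left out. Calls of *Fgf10*, *Cdh1*, *Cldn6*, *Col1a1*, *Col1a2* and *Wt1*, checked after the data were seen, were lost without the trend, without a filter, without control pool 1 and without mutant pool 3. *Ccnd1* was not called without control pool 1 or any 1 of the mutant pools. Log2 fold changes that changed sign were those centred on mesenchymal markers, an alternative chosen after the data were seen (*Smo* -0.19, *Hhip* -0.17, *Gli2* -0.16, *Gli3* -0.10, *Cdon* -0.051), *Hhip* with 1 pool left out (-0.012 without control pool 2 to 0.18 without control pool 3) and *Gli1* with 1 pool left out (-0.18 without mutant pool 2 to 0.016 without mutant pool 1). The cause was not tested. The ratios to markers kept their direction under every alternative run on them, and that of *Hhip* ran from -0.25 to -0.022 with 1 pool left out. With 3 pools of whole lung, changes of a few percent were not detectable.

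The values did not settle whether replicate numbers paired the pools, and the main test used no pairing. Deviations of same-numbered pools correlated across 11458 genes at -0.03, 0.20 and 0.08, and not every pool correlated best with its own number. With the replicate block 71 genes were called, of which 0 were among the 9 Hedgehog genes and 0 among the other pathway genes, and *Boc* had an adjusted p of 0.057 (limma).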
